A study of Mus musculus with 6 samples.

Results

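The genes described are the beta2 integrin chains and the proteins that switch them on from inside the cell: Itgam, Itgal and Itgax (alpha chains), Itgb2 (the shared beta2 chain), Tln1, Fermt3, Rasgrp2 and Rap1b (talin, kindlin and the small GTPase switch) and the ligand gene Icam1. They were chosen by name, and all 9 were found once each among the 41388 genes listed. The cells were neutrophils isolated from the marrow of C57BL/6 mice. They had taken up the voltage-sensitive dye DiBAC4(3) at 250 nM and received 100 nM ionomycin, which lets calcium into cells, and from 2 to 4 minutes later 20000 cells each with a depolarized and with a polarized response were sorted by dye signal. Dye and ionomycin are shared by both groups, so no library shows unstimulated cells. Each group has 3 libraries, and a polarized and a depolarized library with the same title code form a biological replicate pair, here called A, B and C in the order of the codes. The depolarized library of pair B carries another run label than the other 5, whose meaning remains not given in the sources used here, as does the number of mice behind a pair.

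Beta2 integrins are heterodimers of 1 alpha and 1 beta chain. On a resting neutrophil they are folded in a state of low affinity. A chemoattractant signal or a rise in calcium turns on the exchange factor CalDAG-GEFI (Rasgrp2), which loads the GTPase Rap1 with GTP. Rap1 and its effectors bring talin to the tail of the beta chain, kindlin-3 (Fermt3) binds beside it, and the integrin extends and grips its ligands. Mac-1 (Itgam with Itgb2) serves adhesion, crawling and uptake of complement-coated particles, and LFA-1 (Itgal with Itgb2) serves firm arrest on ICAM-1, the product of Icam1. In mice the CD11c chain (Itgax) is best known from dendritic cells and some macrophages. Integrin activation acts on protein already made, which mRNA levels do not measure.

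Total counts ran from 16904969 to 20381489 per library. The neutrophil marker genes were abundant in both groups, with a summed level of 196780 to 242277 CPM (counts scaled to a common library total) in polarized and 170273 to 192869 CPM in depolarized cells. Every depolarized sum thus lay below every polarized sum. Of the 10 markers 8 were fitted lower in depolarized cells and 2 higher, with a median log2 fold change of -0.33 and 0 called by edgeR. Genes of the early neutrophil stage, such as Mpo and Elane, moved with the sort: 12 of 15 were lower in depolarized cells by edgeR, and their summed level was 2795 to 5515 CPM against 1127 to 2395 CPM. Of 10 late-stage genes 0 were called by edgeR, and DESeq2 called Ccrl2 among the 10. By edgeR 8 were fitted higher in depolarized cells and 2 lower, and all 5 at an unadjusted p under 0.05 were higher. In bulk RNA fewer cells of a stage and less RNA per cell cannot be told apart. Among the libraries, polarized C was set apart by a TMM scaling factor of 0.876 against 0.967 to 1.08 in the others, and results of the 9 genes are therefore given by pair, and without pair C where a call or direction changed.

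Promoter windows of 300 bases, from 250 before to 50 after the start of the gene, were taken from RefSeq (GRCm38.p6). Windows were available for 7 of the 9 genes, and not for Itgb2 and Itgal. The windows of Itgam and Itgax are shown because these neighbouring alpha chain genes differ widely in level, and that of Icam1 because it is the ligand gene and a known target of NF-kB. Capitals mark GAGGAA, a form of the site of the myeloid factor PU.1, and GGAAATTCC, a form of the NF-kB site, read on both strands. The 2 motifs do not overlap in these windows. All windows lie on the plus strand, at chr7:128062390-128062689, chr7:128129300-128129599 and chr9:21015690-21015989.
Itgam: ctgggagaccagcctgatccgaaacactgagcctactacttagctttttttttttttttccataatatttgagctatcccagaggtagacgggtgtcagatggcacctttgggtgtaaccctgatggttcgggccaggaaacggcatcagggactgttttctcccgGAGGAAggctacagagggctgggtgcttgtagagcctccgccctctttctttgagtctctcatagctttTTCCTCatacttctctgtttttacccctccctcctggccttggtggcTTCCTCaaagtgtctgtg
Itgax: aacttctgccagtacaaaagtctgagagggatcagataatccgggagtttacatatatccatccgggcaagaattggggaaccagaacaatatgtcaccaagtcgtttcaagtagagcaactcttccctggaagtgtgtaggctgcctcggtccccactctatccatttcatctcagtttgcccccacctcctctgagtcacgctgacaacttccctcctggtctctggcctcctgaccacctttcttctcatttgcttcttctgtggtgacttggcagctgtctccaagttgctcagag
Icam1: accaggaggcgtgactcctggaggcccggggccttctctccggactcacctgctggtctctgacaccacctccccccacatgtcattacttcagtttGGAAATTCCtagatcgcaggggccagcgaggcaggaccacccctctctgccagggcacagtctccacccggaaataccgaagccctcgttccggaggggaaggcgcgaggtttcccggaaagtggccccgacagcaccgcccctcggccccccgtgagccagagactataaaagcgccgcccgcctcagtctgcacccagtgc
The Itgam window held GAGGAA 3 times, as written from base 167 and as its reverse complement from bases 236 and 283, counted from 1 at the 5′ end. Neither motif was found in the Itgax window, and shorter or other forms of these sites were not searched. The Icam1 window held GGAAATTCC once, from base 98, and no GAGGAA. Among the windows not shown, that of Tln1 held 1 GAGGAA, and those of Fermt3, Rap1b and Rasgrp2 held neither motif. A relation of these motifs to the level of a gene was not tested. Of 32851 windows of this length, 28.3% held GAGGAA and 0.317% held GGAAATTCC, so the first motif is common and the second rare. The matches are letters in a window, and no binding was measured here.

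**Figure D1:**
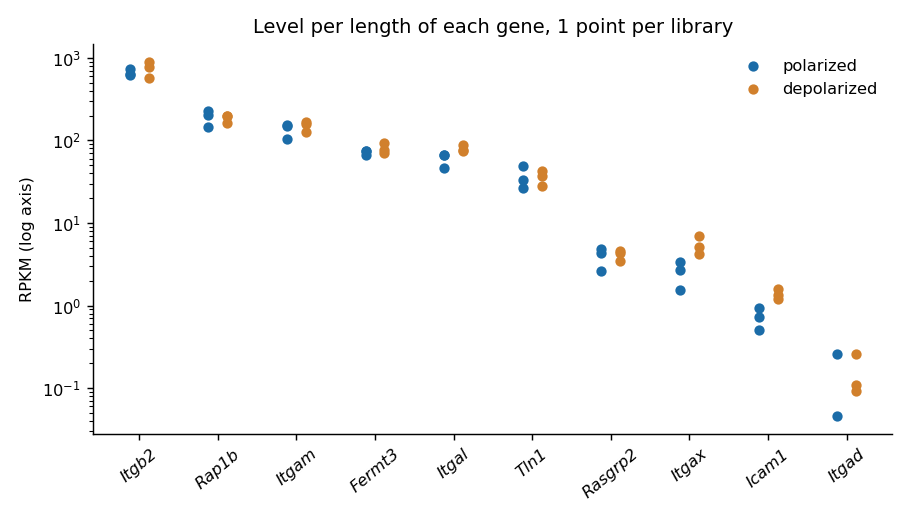
RPKM per library (log axis) of the 9 genes and Itgad, ordered by mean, with blue points for polarized and orange points for depolarized libraries. Itgb2 lies above all others in every library, Itgax and Icam1 lie far below Itgam and Itgal, and the polarized library of pair C, with 0 counts of Itgad, is left out of that column.

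Levels of different genes were compared per length, as RPKM (CPM per kilobase of the listed gene length). Itgb2, the chain that every member of the family needs, was highest at 703 ± 121 RPKM (SD, n = 6 libraries). Rap1b followed at 189 ± 30.2 RPKM and Itgam at 144.0 ± 23.5 RPKM. Fermt3 at 75.6 ± 9.52 RPKM, Itgal at 69.7 ± 14.1 RPKM and Tln1 at 36.1 ± 8.60 RPKM formed the middle, and Rasgrp2 at 4.02 ± 0.812 RPKM, Itgax at 3.96 ± 1.89 RPKM and Icam1 at 1.05 ± 0.406 RPKM the low end. The ranges over the 6 libraries did not overlap between Itgb2 and Rap1b, Itgam and Fermt3, or Tln1 and Rasgrp2. They overlapped between Rap1b and Itgam, Fermt3 and Itgal, Itgal and Tln1, Rasgrp2 and Itgax, and Itgax and Icam1, although Itgal exceeded Tln1 and Itgax exceeded Icam1 in 6 of 6 libraries. The order of close neighbours depends on the length used. Per kilobase of the longest coding transcript, Itgam (196 CPM per kilobase) stood above Rap1b (140.2) and Itgal (85.1) above Fermt3 (75.6). Rasgrp2 reached 21.7 on that scale, because its listed length of 12384 bases exceeds its longest coding transcript of 2296 bases.

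For talin and for kindlin, 1 gene carried nearly all counts of its family. Tln1 held 39185 counts over the 6 libraries against 3 of Tln2, 1 in polarized and 2 in depolarized cells. Fermt3 held 22039 counts, Fermt1 1 and Fermt2 1, which is the kindlin pattern known of blood cells. The RasGRP exchange factors were shared between genes. Rasgrp4, known from myeloid cells, held the most, with 10927 counts in polarized and 10936 in depolarized cells, against 2701 and 2847 of Rasgrp2, and its level was 196 ± 30.2 and 195 ± 26.1 CPM (SD, n = 3 each). Per listed length Rasgrp4 stood at 30.8 ± 3.97 RPKM (SD, n = 6). Rasgrp1 held 11 and 1 counts and Rasgrp3 5 and 1. Rap1b, at 382 ± 61.0 CPM over the 6 libraries, stood above its near twin Rap1a, at 34.9 ± 1.73 CPM in polarized against 31.1 ± 2.30 CPM in depolarized cells (SD, n = 3 each).

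**Figure D2:**
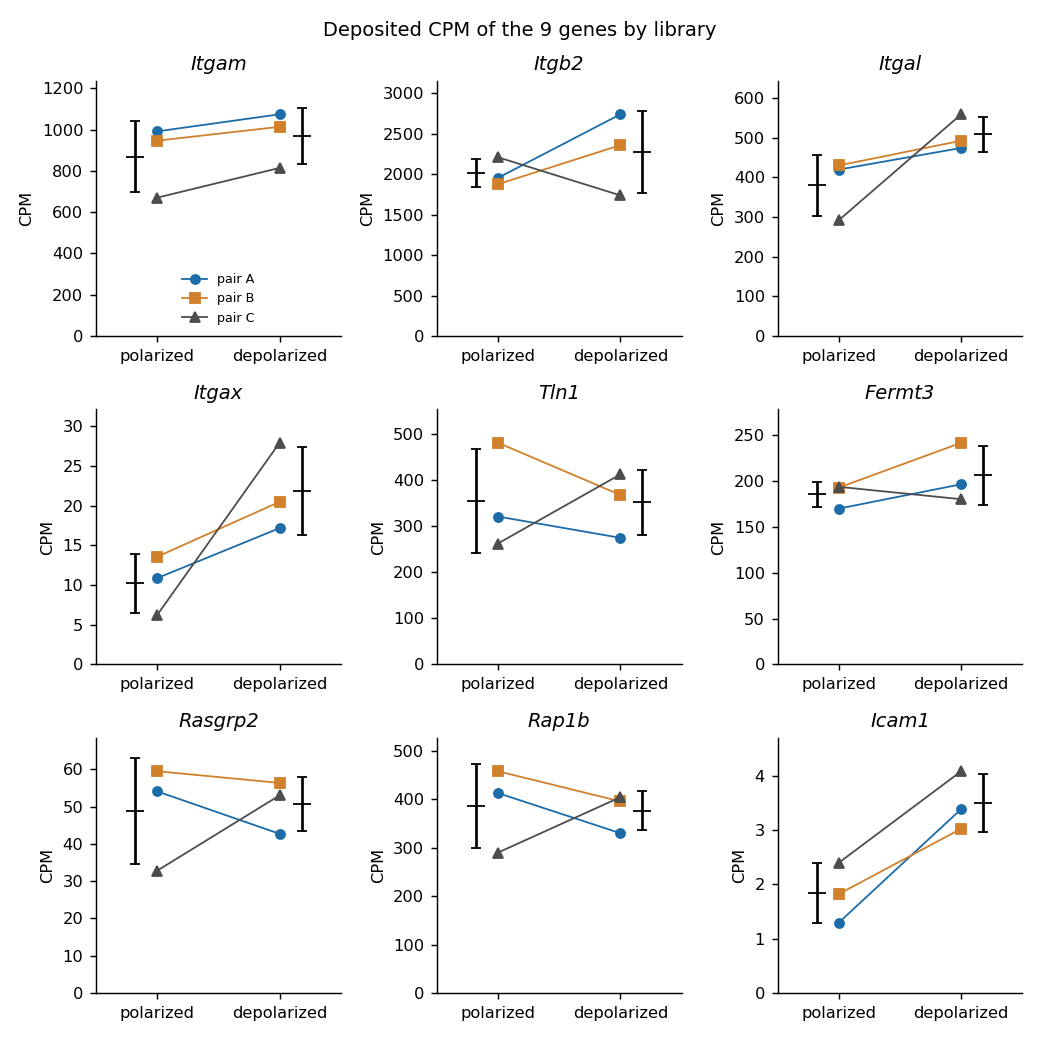
Deposited CPM of each of the 9 genes by library, with lines joining the 2 libraries of a pair (A circles, B squares, C triangles) and bars for the mean ± SD of 3 libraries. Itgal, Itgax and Icam1 are higher in depolarized cells in all pairs without overlap of the groups, and Itgb2, Tln1, Fermt3, Rasgrp2 and Rap1b move one way in pairs A and B and the other way in pair C.

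The comparison asks whether neutrophils that depolarized carried other amounts of this machinery than neutrophils that were polarized. Of the 9 genes 0 were called higher and 0 lower by edgeR at an adjusted p under 0.05, where 0.321% of 9971 tested genes were called in either direction (0.0802% higher and 0.241% lower). DESeq2 with the pairs as a block also called 0 of the 9. All 9 passed the filter on low counts, 2 (Itgax and Icam1) had an unadjusted p under 0.05, and 6.58% of all tested genes did. The median of the 9 fitted log2 fold changes, depolarized minus polarized, was 0.09, against -0.0022 over all genes tested. Itgam, Itgal, Itgax and Icam1 were above 0 in 3 of 3 pairs, as were 12.9% of all tested genes. The other 5 genes differed in sign between pairs, and 0 of the 9 were below 0 in all pairs, as were 12.1% of all tested genes.

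Itgax, the CD11c chain (ENSMUSG00000030789, chromosome 7, 128129547 to 128150656 in GRCm38), showed the largest difference among the 9. Its level in pairs A, B and C was 10.9, 13.6 and 6.22 CPM in polarized cells against 17.2, 20.5 and 27.9 CPM in depolarized cells. All 3 depolarized libraries lay above all 3 polarized ones, as they did for 7.28% of tested genes by CPM and for 4.58% after TMM scaling. The log2 fold change was 1.06 ± 0.26 (SE), 2.08-fold higher in depolarized cells, with an unadjusted p of 0.0008 and an adjusted p of 0.133 by edgeR, so Itgax was not called. The difference by pair was 0.72, 0.55 and 1.92 on the log2 scale, largest in pair C. Itgax was called by edgeR with all genes kept (adjusted p 0.0022), without pair A (log2 fold change 1.24, adjusted p 0.0264) and without pair C (log2 fold change 0.64, adjusted p 0.0106). Over all genes these fits called 50, 25 and 500 genes higher and 96, 74 and 518 lower. With all pairs and the filter it was 8 and 24. Without the block the adjusted p of Itgax was 0.349, and DESeq2 gave 0.0581. Its summed counts were 563 in polarized and 1215 in depolarized cells. Of its 50-base stretches 8.02% also occur in the neighbouring paralog Itgad, which held only 62 counts.

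Itgal, the CD11a chain of LFA-1 (chromosome 7, 127296260 to 127335137), was at 419.7, 430.0 and 292 CPM in polarized against 474, 492 and 559 CPM in depolarized cells of pairs A, B and C. The groups did not overlap, and the polarized library of pair C was the lowest and its depolarized partner the highest of all 6. The log2 fold change was 0.37 ± 0.18 (SE), with an unadjusted p of 0.0614 and an adjusted p of 0.793 by edgeR, and 0.20 without pair C. The same 2 libraries of pair C were the lowest and the highest for Itgax.

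Itgam, the CD11b chain of Mac-1 (chromosome 7, 128062640 to 128128160), was the most abundant alpha chain. It was at 991, 946 and 670.1 CPM in polarized against 1074, 1014 and 814 CPM in depolarized cells. The groups overlapped, and both libraries of pair C were lower than those of the other pairs. The log2 fold change was 0.10 ± 0.18 (SE, edgeR adjusted p 1). In the GENCODE M21 gene models 68.7% of the exon length of Itgam is shared on the same strand with Gm49368. This gene has no entry among the 41388 genes listed, so no counts were assigned to it there. How reads on shared exons were counted remains not given in the sources used here. Itgam ends 1386 bases before Itgax starts, and Itgax ends 3719 bases before Itgad, while Itgal lies 728 kilobases upstream of Itgam. The CD11d gene Itgad stayed under the filter, with summed counts of 24 in polarized and 38 in depolarized cells.

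Itgb2, the beta2 chain (CD18, chromosome 10, 77530252 to 77565708), was at 1953, 1875 and 2208 CPM in polarized against 2739, 2358 and 1737 CPM in depolarized cells. In pairs A and B it was higher in depolarized cells by 0.55 and 0.29 on the log2 scale, and in pair C the difference was -0.57. The 3-pair log2 fold change was 0.09 ± 0.22 (SE, edgeR adjusted p 1). Without pair C it was 0.42 with an edgeR adjusted p of 0.000961, and without pair A it was -0.14 and without pair B -0.01. Over all genes the fit without pair C called 500 higher and 518 lower, against 8 and 24 with all pairs. A call for Itgb2 therefore rests on leaving out pair C.

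**Figure D3:**
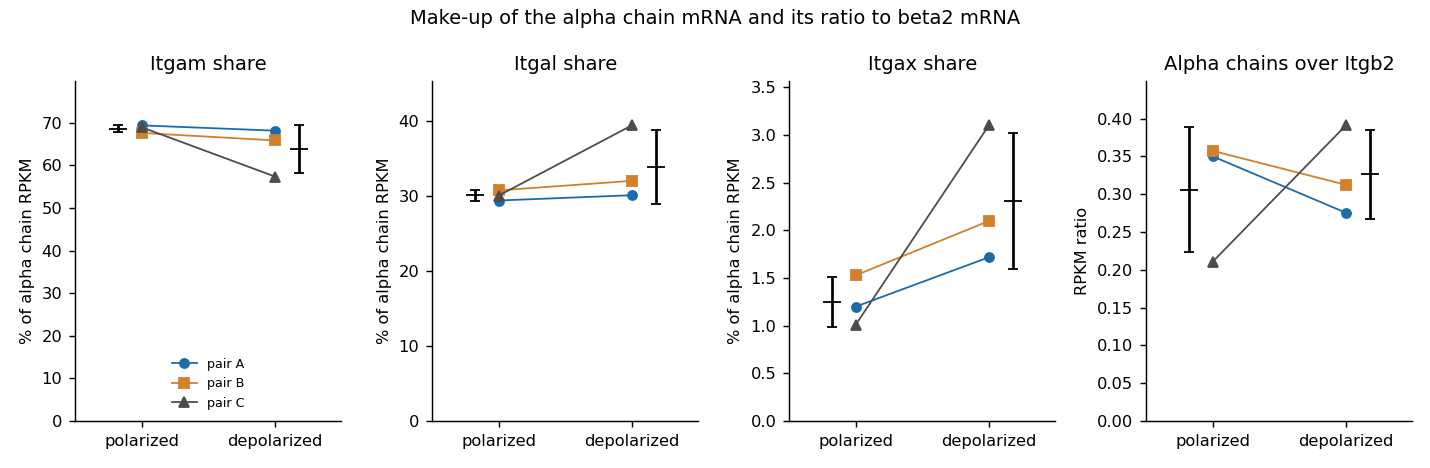
Share of the summed alpha chain RPKM held by Itgam, Itgal and Itgax, and the ratio of the summed alpha chain RPKM to that of Itgb2, by library, with lines joining pairs and bars for mean ± SD of 3 libraries. The Itgam share is lower and the Itgal and Itgax shares are higher in the depolarized library of every pair, most of all in pair C, while the ratio to Itgb2 differs in direction between pairs.

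The choice of alpha chain was measured as the share of each chain in the summed RPKM of Itgal, Itgam, Itgax and Itgad, a measure that library scaling cannot move. In pairs A, B and C the Itgam share was 69.4%, 67.6% and 69.0% for polarized cells against 68.2%, 65.9% and 57.4% for depolarized cells. Itgal held 29.4%, 30.7% and 30.0% in polarized and 30.1%, 32.0% and 39.4% in depolarized cells. Itgax held 1.20%, 1.53% and 1.01% in polarized and 1.72%, 2.10% and 3.10% in depolarized cells, and Itgad at most 0.119% in any library. The polarized libraries were close to each other, with an SD of 0.923 percentage points for Itgam, against 5.67 points in depolarized cells.

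Within every pair the depolarized library had a lower Itgam share and higher Itgal and Itgax shares. The mean difference was -4.86 ± 5.82 percentage points for Itgam, 3.78 ± 4.84 for Itgal and 1.06 ± 0.895 for Itgax (SD, n = 3 pairs). An exact paired permutation test (two-sided) over 3 pairs cannot go below 0.25, and it gave p = 0.25 for each of these 3 shares and 0.75 for Itgad, or 0.333 and 0.75 adjusted over the 4 shares. With the pairing set aside, an exact permutation test gave 0.2 for Itgam and Itgal and 0.1, the smallest it allows, for Itgax. Without pair C the mean differences were -1.50, 0.99 and 0.54 points, so most of the Itgam and Itgal shift lay in that pair. As a plain ratio, Itgal stood at 0.423, 0.454 and 0.435 of Itgam in polarized against 0.441, 0.486 and 0.686 in depolarized cells. The 4 shares make up a whole, so the shifts of Itgam, Itgal and Itgax are not separate results. Itgam mRNA itself was not lower in the depolarized library of any pair, with log2 differences of 0.18, 0.06 and 0.05.

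Alpha chain mRNA per beta chain mRNA showed no common direction. The summed alpha chain RPKM was 0.350, 0.357 and 0.211 of the Itgb2 RPKM in polarized and 0.275, 0.312 and 0.391 in depolarized cells of pairs A, B and C. The log2 difference was -0.35, -0.19 and 0.89 by pair, with a mean of 0.12 ± 0.68 (SD, n = 3 pairs, exact paired permutation test, two-sided, p = 1). In every library Itgb2 exceeded the 4 alpha chains together.

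Of the genes that act inside the cell (Tln1, Fermt3, Rasgrp2 and Rap1b) none was called by edgeR, and the pairs disagreed in sign. The absence of a call over so few pairs does not show equal levels. Tln1, talin-1, the large adaptor that links the beta tail to actin (chromosome 4, 43531519 to 43562691), was at 321, 481 and 263 CPM in polarized against 275, 368 and 413 CPM in depolarized cells. Its differences were -0.16, -0.43 and 0.43 by pair, with a log2 fold change of -0.06 ± 0.19 (SE, edgeR adjusted p 1). On the opposite strand 3.67% of its exon length overlaps Creb3, which held 12004 counts. Fermt3, kindlin-3 (chromosome 19, 6998958 to 7019469), was at 169.8, 193 and 194 CPM in polarized against 196, 242 and 180.1 CPM in depolarized cells, with a log2 fold change of 0.08 ± 0.19 (SE, edgeR adjusted p 1). Its pair differences had the signs of Itgb2, at 0.27, 0.29 and -0.33.

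Rasgrp2, the calcium-responsive exchange factor for Rap1 (chromosome 19, 6399340 to 6415216), was at 54.1, 59.5 and 32.8 CPM in polarized against 42.7, 56.3 and 53.0 CPM in depolarized cells. Its log2 fold change was 0.02 ± 0.19 (SE, edgeR adjusted p 1). Rap1b, the GTPase it loads (chromosome 10, 117814471 to 117845935), was at 413, 458 and 290.0 CPM in polarized against 330.1, 396 and 405 CPM in depolarized cells. Its log2 fold change was -0.09 ± 0.18 (SE, edgeR adjusted p 1). Tln1, Rasgrp2 and Rap1b were each lower in depolarized cells in pairs A and B and higher in pair C, the reverse of Itgb2 and Fermt3. Markers of platelets, in which Rasgrp2 and Rap1b are also abundant, had a summed level of 3.42 to 5.75 CPM in polarized against 2.36 to 5.32 CPM in depolarized cells for 10 genes.

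**Figure D4:**
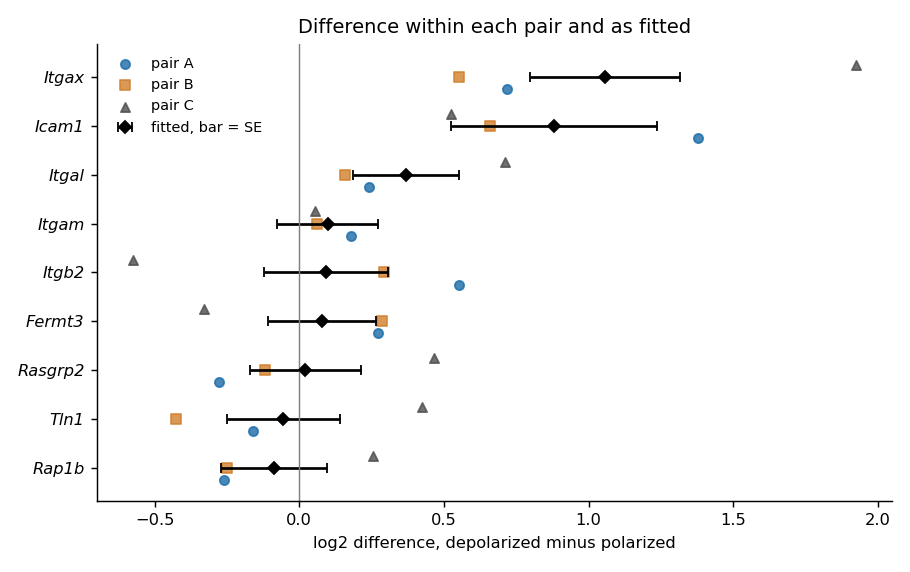
Log2 difference (depolarized minus polarized) of each gene within pairs A, B and C (coloured symbols) and as fitted by edgeR with its SE (black diamonds). Itgax and Icam1 lie farthest above 0, and pair C lies on the other side of 0 from pairs A and B for Itgb2, Fermt3, Rasgrp2, Tln1 and Rap1b.

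Icam1, the ligand gene (chromosome 9, 21015960 to 21028797), was scarce. It was at 1.29, 1.82 and 2.40 CPM in polarized against 3.39, 3.02 and 4.08 CPM in depolarized cells, without overlap between the groups. These values rest on 25, 31 and 47 counts and on 69, 58 and 69 counts. The log2 fold change was 0.88 ± 0.36 (SE), 1.84-fold higher in depolarized cells, with an unadjusted p of 0.0247 and an adjusted p of 0.627 by edgeR. By pair it was 1.38, 0.66 and 0.52. Part of the Icam1 exons, 11.7%, overlaps Gm47079 on the opposite strand, a gene with no entry among those listed. Of the other NF-kB-induced genes listed beside it, 0 of 14 tested were called by edgeR and 0 by DESeq2. At an unadjusted edgeR p under 0.05 were 3, all higher in depolarized cells. Fitted above 0 were 13 and below 0 was 1, with a median log2 fold change of 0.09. In all pairs 5 were above 0 and 0 below, as were 12.9% and 12.1% of all tested genes. Il1b, the interleukin-1 beta gene, was at 650.3 ± 97.3 and 1014 ± 67.0 CPM (SD, n = 3; log2 fold change 0.58, edgeR adjusted p 0.317). The chemokine gene Ccl4 was at 55.8 ± 15.7 and 81.1 ± 15.6 CPM, and Cxcl2, a neutrophil chemoattractant gene, at 149.0 ± 21.7 and 161 ± 15.5 CPM.

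Markers of other blood cells were read beside these differences. Of 10 markers of dendritic cells 0 were at 0 counts, and their summed level was 38.1 to 60.4 CPM in polarized against 33.5 to 57.3 CPM in depolarized cells, most of it from Cd74. Zbtb46 stayed at or under 1.72 CPM, Flt3 at or under 0.469 CPM and Xcr1 at or under 0.208 CPM in every library. The 10 markers of T and NK cells summed to 24.3 to 30.4 CPM in polarized against 17.0 to 23.9 CPM in depolarized cells, with Cd3e at or under 0.561 CPM. Monocyte and macrophage markers summed to 999.7 to 1249 and 923 to 1034 CPM. Of 6 tested, 5 had an unadjusted edgeR p under 0.05, 2 higher and 3 lower, with 0 called and a median log2 fold change of -0.79. None of these sums of dendritic cell, T and NK cell, and monocyte and macrophage markers was higher in all depolarized libraries than in the polarized ones. A sum carried mostly by Cd74 cannot show a small change in dendritic cells. Of 5 tested dendritic cell markers 1 was fitted above 0 and 4 below, with 0 called by edgeR. The early neutrophil genes were lower. Of 3 tested T and NK markers 1 was called by edgeR, Nkg7, at 5.51 ± 5.39 CPM in polarized against 0.27 ± 0.381 CPM in depolarized cells (SD, n = 3; log2 fold change -4.65). B cell markers summed to 413 to 526 and 479.5 to 943 CPM, a sum carried by Ighm, while the 6 other tested B cell markers were fitted below 0 (median of all 7 -0.99, 3 of them lower at an unadjusted p under 0.05, 0 called by edgeR). The 10 eosinophil markers summed to 52.5 to 501 and 72.3 to 236 CPM, and 7 of 9 tested had an unadjusted p under 0.05, 3 higher and 4 lower. Of these edgeR called Alox15, at 3.6 ± 2.76 and 16.6 ± 7.65 CPM (log2 fold change 2.37, adjusted p 0.0393), while Epx stood at 9.85 ± 8.82 and 2.87 ± 3.95 CPM. The part of the early neutrophil genes and of dendritic cell, monocyte and macrophage, B cell, T and NK cell and eosinophil markers in the Itgax, Itgal and Icam1 differences was not tested.

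**Figure D5:**
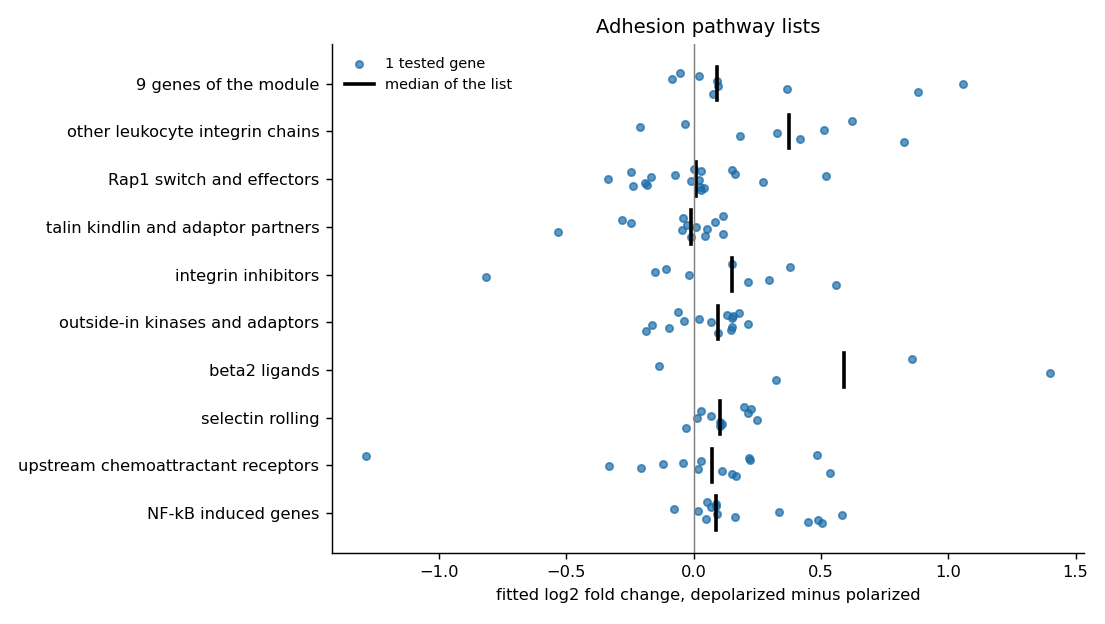
Fitted log2 fold change (depolarized minus polarized) of every tested gene in the 9 named genes and in each of 9 lists, of the adhesion pathway and of NF-kB-induced genes, 1 point per gene, with a black bar at the list's median. Most genes lie within 0.5 of 0, and 0 of the points passed the adjusted threshold in the edgeR test.

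Around these 9 genes, 133 others were listed in 9 groups, of the adhesion pathway and of NF-kB-induced genes, and 106 passed the filter. By edgeR 0 were called higher and 0 lower, with a median log2 fold change of 0.07 and a lowest adjusted p of 0.108. Of the 106, 14 had an unadjusted edgeR p under 0.05, as did 6.58% of all tested genes. DESeq2 called 1, Itga4 (log2 fold change 0.83, adjusted p 0.0268). Without pair C edgeR called 15 higher and 8 lower, on 1 residual degree of freedom in place of 2. Over all genes that fit called 500 higher and 518 lower, against 8 and 24 with all pairs, so calls rose widely. Of the genes named below, those called higher without pair C were Itga4 (adjusted p 2.1e-05), Rasa3 (0.000747), Skap2 (0.0249), Nrros (0.0205), Lcp2 (0.0119), Jam3 (0.0175), Cxcr1 (0.00744) and C5ar1 (0.00172), with Il1b (7.47e-06) and Ccl4 (0.00036) of the NF-kB list. Those called lower by edgeR without pair C were Lims1 (adjusted p 0.0086), Vasp (0.00158), Flna (0.0211), Dok2 (0.0468), Sipa1 (0.00118) and Rap1gap2 (0.0102).

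Integrin chains of other families were scarce beside the beta2 chains, with a summed level of 79.4 to 131 CPM in polarized against 132 to 175 CPM in depolarized cells. Of 8 tested chains 6 were fitted above 0, with a median of 0.37. Itga4, the alpha4 chain of VLA-4, was at 30.3 ± 7.53 CPM in polarized against 55.9 ± 10.1 CPM in depolarized cells (SD, n = 3), with pair differences of 0.43, 0.95 and 1.10. Itgb7, which can pair with it, was at 16.8 ± 5.62 and 27.0 ± 7.52 CPM (edgeR adjusted p 0.563). Itgb3 was at 30.8 ± 8.76 and 27.3 ± 4.96 CPM.

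Of 18 tested genes of the Rap1 switch and its effectors, 10 were fitted above 0 and 8 below, with a median of 0.01. Rasa3, which switches Rap1 off, was at 134 ± 13.9 CPM in polarized against 203 ± 35.6 CPM in depolarized cells, with pair differences of 0.42, 0.56 and 0.58 (edgeR adjusted p 0.401). Other tested genes of this kind went both ways. The log2 fold change was -0.24 for Sipa1 and -0.18 for Rap1gap2, against 0.03 for Sipa1l1 and 0.15 for Sipa1l3. The effector gene Rassf5 (RAPL) was at 305 ± 21.3 and 360.4 ± 58.6 CPM, and Stk4, the kinase that works with it, at 262 ± 46.3 and 272 ± 17.6 CPM. Of 13 tested partners of talin and kindlin, 6 were fitted above 0, with a median of -0.01. Lims1 (PINCH), part of the complex that sits on the integrin tail, was at 473 ± 40.2 and 345 ± 59.8 CPM, below 0 in all pairs (log2 fold change -0.53, edgeR adjusted p 0.427). Skap2, an adaptor needed for neutrophil beta2 activation, was at 560.5 ± 118 and 615 ± 49.9 CPM. Coro1a was at 2309 ± 178 and 2410.4 ± 260.3 CPM, and Vasp, an actin regulator, at 305 ± 61.7 and 264 ± 53.5 CPM.

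Among 9 genes listed as restraining integrins, 5 were fitted above 0 and the median was 0.15. The list was set by name, the role of its members was not tested, and no such role is claimed here for Nrros. Dok2, an adaptor that can occupy beta tails, was at 11.4 ± 1.42 and 6.86 ± 1.66 CPM (log2 fold change -0.82, edgeR adjusted p 0.314), and Nrros at 137 ± 14.4 and 188 ± 40.7 CPM (0.38, adjusted p 0.733). Filamin A (Flna), which competes with talin, was at 543 ± 186 and 495 ± 73.8 CPM. Cytip was at 546 ± 61.6 and 663 ± 70.6 CPM. Of 15 tested kinases and adaptors that signal after ligand binding 10 were fitted above 0, with a median of 0.09. The adaptor genes Tyrobp, at 4400.3 ± 678 and 5021 ± 378 CPM, and Fcer1g, at 2712 ± 381 and 2645 ± 198 CPM, were the most abundant of them per length. Lcp2 (SLP-76) was at 376 ± 61.2 and 453 ± 43.9 CPM, and Vav1 at 87.3 ± 5.90 and 103 ± 1.86 CPM.

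Of 9 further ligand genes 4 were tested, with a median of 0.59, and Icam4, Icam5 and Ccn1 had 0 counts in all libraries. Jam3, a ligand of Mac-1, was at 3.52 ± 1.76 and 6.24 ± 1.12 CPM, F11r, a ligand of LFA-1, at 0.642 ± 0.481 and 1.71 ± 0.987 CPM, and Icam2 at 12.9 ± 1.98 and 12.2 ± 0.207 CPM. The rolling genes, which act before integrins, had a median of 0.10, with 10 of 11 fitted above 0. The P-selectin ligand gene Selplg was at 557 ± 28.8 and 688 ± 110 CPM, Cd44 at 1942 ± 262 and 2177 ± 157 CPM and Gcnt1, an enzyme for selectin ligands, at 147 ± 27.8 and 181 ± 4.52 CPM. Of 14 chemoattractant receptor and signal genes 9 were fitted above 0, with a median of 0.07. The receptor gene C5ar1 was at 4518 ± 750 and 5272 ± 412 CPM, Fpr1 at 2151 ± 341 and 1943 ± 177 CPM, Ptafr at 937 ± 228 and 1349 ± 155 CPM (log2 fold change 0.48, edgeR adjusted p 0.614) and Cxcr1 at 12.5 ± 5.32 and 18.6 ± 5.81 CPM.

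The genes whose level followed Itgb2 most closely over the 6 libraries, among 2622 with a mean log2 CPM of at least 5, were Creb3 (Pearson r = 0.998), Copb2 (0.994), Bid (0.984), Tmem38a (0.968) and Prr14 (0.968). Like Itgb2 they were higher in the depolarized library in pairs A and B and lower in pair C, which follows from how they were picked. With 6 libraries that share depth and pairing, these values describe likeness only.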

How the data were processed

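RNA was measured in 6 libraries, 3 of polarized and 3 of depolarized neutrophils, grouped by the response label. The deposited tables list for each gene the count, which is not normalized, with its CPM and RPKM. Per the submitters' processing notes bcl2fastq, STAR (2.0.4b), Subread and featureCounts (1.45) were used with build GRCm38. The deposited CPM equal counts scaled to the library total, and the deposited RPKM equal that per kilobase of listed length. Not given in the sources used here were strand setting and treatment of reads that match several places. Symbols were matched for 40254 genes.

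Counts were tested in R 4.3.3 with edgeR 4.0.16 (filterByExpr, TMM, quasi-likelihood F test, pair as block, Benjamini-Hochberg over 9971 genes, called at an adjusted p under 0.05). SE was taken as the log2 fold change over the root of F. Pair differences are of TMM-scaled log2 CPM with a prior count of 2. The script was tested on simulated data. Pairing rests on the design text. Deviations from group means correlated at 0.08, 0.27 and 0.03 within pairs A, B and C, so the values alone show little of it. Overlap was read from GENCODE M21. Alternatives were no block, DESeq2 1.42.0, other filters and scaling, removal of the length trend and each pair left out. The genes, lists and tests were chosen with earlier results of these data known. Named were the 9 genes, Itgad, and from each list called genes or else the 2 with the lowest p and the 2 highest per length, of which 1 gene is not reported here. Other genes were named after their values were seen.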

Additional observations from a re-analysis of the deposited data

How the results depend on the processing

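The 9 genes, of which 0 were called, gave 1 call (Itgax) with no filter, 0 to 2 when 1 pair was left out (Itgax without pair A, Itgax and Itgb2 without pair C) and 0 without the replicate block, with DESeq2, RLE scaling, a stricter filter (mean CPM of at least 5, which dropped Icam1) or the length trend removed. Over all genes 8 were called higher and 24 lower. Without the replicate block, that is without the pairing, it was 0 and 0 (511 genes at an unadjusted p under 0.05), with DESeq2 16 higher, with no filter 50 and 96, with the stricter filter 7 lower, and with the length trend removed 0 and 8. Leaving out 1 pair gave 9 to 500 higher and 36 to 518 lower.

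Leaving out 1 pair changed the sign of 5 of the 9 genes: Itgb2 ran from -0.14 to 0.42, Tln1 from -0.29 to 0.13, Fermt3 from -0.028 to 0.28, Rasgrp2 from -0.20 to 0.18 and Rap1b from -0.26 to 0.00 (0.0037). Itgax, Itgal, Itgam and Icam1 stayed above 0 under every alternative run. The log2 ratio of alpha chains to Itgb2 ran from -0.27 to 0.35 and the Itgad share difference from -0.0284 to 0.0707 points when 1 pair was left out. The other 3 share differences kept their sign per length, as CPM, per kilobase of the longest coding transcript and without each pair. That last length and the ratio of Itgal to Itgam were chosen after seeing the data. For calls that changed, the cause was not tested. Depth limits Itgad and Icam1: 3 counts over a group correspond to 0.0536 CPM in polarized against 0.0531 CPM in depolarized libraries, and intervals from counts cover counting error only.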

Other observations

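Ilk, the kinase that joins Lims1 and parvin at integrin tails, held 1 count over the 6 libraries, while its partner gene Lims1 was at 473 ± 40.2 and 345 ± 59.8 CPM (SD, n = 3). In the GENCODE M21 gene models Taf10, with 258 counts, covers 76.7% of the Ilk exon length from the other strand, and Rrp8, with 453 counts, covers 12.9%. The part of this overlap in the Ilk count was not tested.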
